A study of Mus musculus with 2 samples.

Results

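The core circadian clock was examined through 10 genes, 3 that encode its transcriptional activators (Arntl, Clock and Npas2) and 7 that encode its repressors (Per1, Per2, Per3, Cry1, Cry2, Bhlhe40 and Bhlhe41). They were taken by name from the 37074 gene names on a mouse expression array, and 23 probes carried those names. The study compared cochlear RNA of mice dissected 3 hours after a 2-hour exposure to intense noise with cochlear RNA of mice that had no noise exposure. All mice were 7-week-old females of the inbred laboratory strain C57BL/6, with no transgene or further treatment in the labels. There was 1 array per group, so no difference below was tested across animals, and the labels give neither the number of mice behind a sample nor the clock hour of dissection. An effect of noise and a difference in time of day between the samples cannot be told apart.

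The circadian clock is a feedback loop of transcription that runs in most mammalian cells, the cochlea among them. BMAL1, the protein of Arntl, pairs with CLOCK or with its relative NPAS2 and switches on genes that carry an E-box, among them Per, Cry and Bhlhe genes. PER and CRY proteins then return to the nucleus and block the activator pair, while BHLHE40 and BHLHE41 compete for the E-box. In tissues with a running clock, Arntl transcripts and the Per transcripts peak at different phases of the day. Per1 and Per2 also respond directly to hormones and to signals that act through CREB.

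Stretches of promoter sequence are shown first for the members in whose window a clock motif was found. RefSeq held windows (GRCm38.p6, 250 bases before to 50 bases after a start site) for 8 of the 10 members, 12 windows in all. Per2 and Bhlhe40 had no window, so they were not searched. The motifs searched, on both strands, were the E-box CACGTG, the weaker E-prime-box CACGTT, the D-box as TTATGTAA or TTACGTAA, the cyclic AMP element TGACGTCA and the RORE, which REV-ERB and ROR proteins bind. Capitals mark the match and positions count from the start site. An E-prime-box on the opposite strand reads AACGTG.
Per3, chr4:151044796-151044890, minus strand: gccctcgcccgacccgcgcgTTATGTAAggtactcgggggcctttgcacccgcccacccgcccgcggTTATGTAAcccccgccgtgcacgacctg
Per1, chr11:69098763-69098810, plus strand: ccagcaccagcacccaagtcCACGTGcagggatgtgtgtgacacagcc
Cry1, chr10:85185087-85185153, minus strand: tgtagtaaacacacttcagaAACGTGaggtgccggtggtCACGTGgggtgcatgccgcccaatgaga
Bhlhe41, chr6:145865546-145865593, minus strand: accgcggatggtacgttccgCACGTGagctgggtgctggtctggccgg
Cry2, chr2:92434208-92434255, minus strand: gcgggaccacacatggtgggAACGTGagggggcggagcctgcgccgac
Arntl, chr7:113207528-113207556, plus strand: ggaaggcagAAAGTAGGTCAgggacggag

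The Per3 window held 2 D-boxes, at -205 and -158, a motif found in 1.06% of the 32851 windows of all genes. Single E-boxes lay at -166 in Per1, -153 in Bhlhe41 and -60 in Cry1, and 7.15% of all windows held one. E-prime-boxes lay at -79 in Cry1 and -166 in Cry2, against 4.68% of all windows. Arntl had a RORE that began 26 bases after its start site, a motif in 0.384% of all windows. Per1 and Arntl each had a further window, at another start site, without a match. The cyclic AMP element, present in 1.79% of all windows, was not found in the members' windows, and neither Clock nor Npas2 had a match to any of these letters there. A match describes letters only and shows no binding.

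Probes were 60 bases long and are placed by their position in the transcript, as the array design gives it. The following 6 are printed because the probe contrasts below turn on them: all 3 of Arntl, and the first probe of Per3, Per2 and Bhlhe41, against which a later probe of the same gene is set. They were taken to lie in coding sequence from general knowledge of these transcripts, not from an annotation. Coordinates are on mm9, the build of the array files.
Arntl, position 1027, chr7:120435023-120436706: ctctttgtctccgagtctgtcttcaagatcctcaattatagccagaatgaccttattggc
Arntl, position 1262, chr7:120439030-120439089: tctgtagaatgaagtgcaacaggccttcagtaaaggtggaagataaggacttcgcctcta
Arntl, position 2245, chr7:120456978-120457037: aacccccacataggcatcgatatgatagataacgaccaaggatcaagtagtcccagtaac
Per3, position 1230, chr4:150406022-150406081: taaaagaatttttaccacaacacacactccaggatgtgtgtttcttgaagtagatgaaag
Per2, position 1001, chr1:93336538-93336597: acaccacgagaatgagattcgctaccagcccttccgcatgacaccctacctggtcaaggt
Bhlhe41, position 438, chr6:145812652-145812711: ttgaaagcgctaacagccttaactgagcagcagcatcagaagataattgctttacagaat

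The first Arntl probe covers 1684 genomic bases with its 60, so it spans an exon junction. All 18 member probes designed on a RefSeq transcript matched the same symbol in the RefSeq gene table, and the other 5 came from Ensembl transcripts or cDNA clones.

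Levels are processed signals, the background-subtracted spot brightness of the scanner software, in intensity units. Log2 ratios are noise minus baseline after each array was scaled to its 75th percentile (316 on the noise array, 278 on the baseline array). A probe counted as measured where it was well above background on both arrays, and a gene took the median of its measured probes. For each probe the error given with ± is an error of the log2 ratio, combined from the scanner software's own errors of the 2 signals. It describes 1 spot on each array and not animals. Between different probes of a gene the SD of the log2 ratio was 0.27 over 9350 genes with at least 2 measured probes. Repeat spots of 296 probes brighter than 300 intensity units gave a median SD of 0.071, and those of only 4 probes between 30 and 300 gave 0.112. No repeated probe was dimmer than 30, so dim member probes have no such check.

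Arntl was lower 3 hours after noise, and it was the member with the lowest log2 ratio among those measured on both arrays. Its gene value was -1.70, or 3.26-fold lower, and 60 of 26533 measured genes lay below it. Of the repressors 6 of 7 lay above 0, where 47.5% of all measured genes did, and Per3 was 2.67-fold higher. Cry1 (-0.09) gave no direction, and the activator Clock (-0.01) was level. In bulk RNA, fewer cells of a type and less RNA per cell cannot be told apart.

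Per probe, Arntl read 49.1 after noise and 141 at baseline at position 1027, a log2 ratio of -1.70 ± 0.21. At position 1262 it read 33.7 and 113, a log2 ratio of -1.93 ± 0.21. At position 2245 it read 255 and 405, a log2 ratio of -0.85 ± 0.20. All 3 were lower after noise, and the probe nearest the 3′ end gave the smallest difference, under 2-fold. Their range of 1.07 was wide for 3 probes, since 3.10% of the 2421 genes with 3 measured probes had a wider one. Taken by its brightest probe alone, Arntl did not reach 2-fold (-0.85), and with the normexp background it was at -1.01, just past it.

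Clock, which encodes the usual partner of BMAL1, was level between the arrays by its gene value of -0.01, which turned to 0.02 with median scaling and 0.17 with spike-in scaling. The probe at position 1980, designed on a cDNA clone, read 93.4 after noise and 82.7 at baseline. The probe at position 7243 read 273 and 234. These had log2 ratios of -0.01 and 0.04, while the one at position 8628 read 783 and 989, a log2 ratio of -0.52 ± 0.20. The probe at position 2247 was well above background at baseline only (7.06 against 3.64). Set against 4.58, the lowest signal well above background on the noise array, it was 1.75-fold lower after noise. With the normexp background its log2 ratio was -0.23, so the 1.75-fold is not a firm bound. Clock thus had 3 measured probes that ranged over 0.56, and 24.4% of genes with as many probes ranged wider.

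Npas2, the CLOCK relative known from forebrain, had 1 probe, at position 3035. It read 12.2 at baseline and 3.96 after noise, where it was not well above background. Set against 4.58, the lowest signal well above background on the noise array, Npas2 was 3.03-fold lower after noise, and this value lay close to the detection limit. With the normexp background its log2 ratio was -0.28, so the 3.03-fold depends on the background and is not a firm bound.

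**Figure D1:**
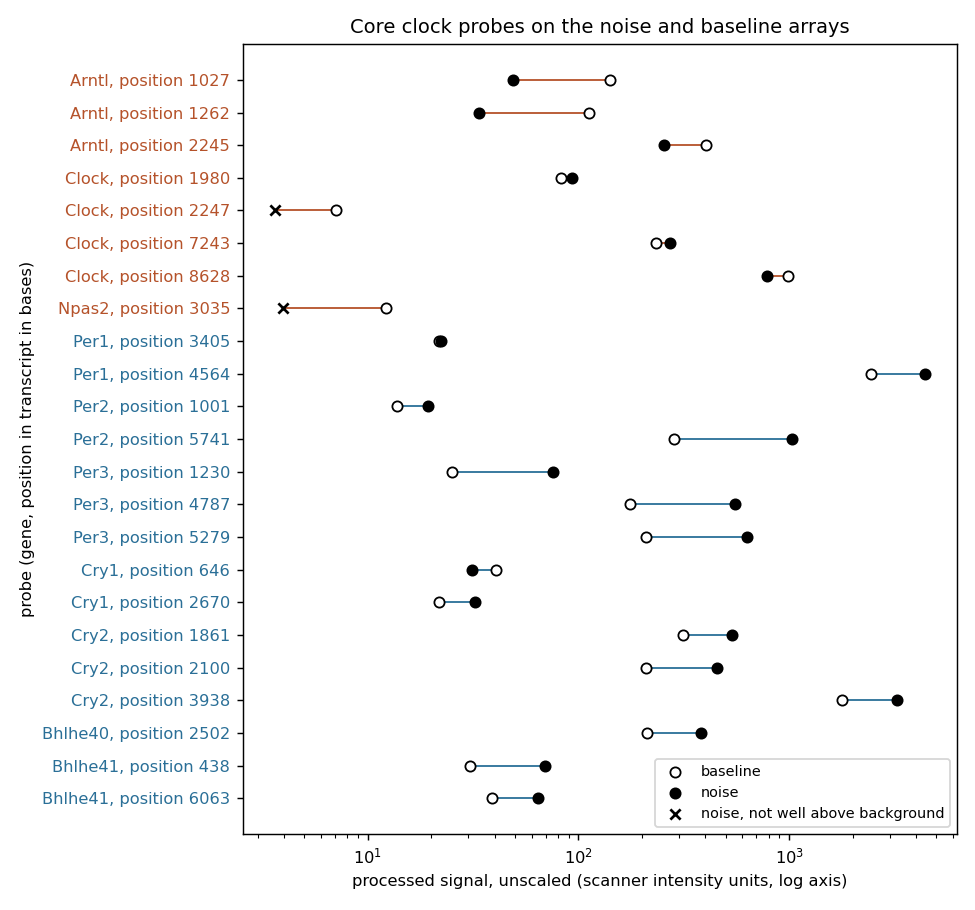
Processed signal of each of the 23 core clock probes on the baseline array (open circles) and the noise array (filled circles, or crosses where not well above background), unscaled and on a log axis. Activator probes are drawn in orange and repressor probes in blue. The 3 Arntl probes moved left after noise (141 to 49.1 at position 1027) and the 3 Per3 probes moved right (208 to 632 at position 5279).

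Per3 had the highest gene value of the repressors, though it lay below Per2 (1.68) with the brightest probe or the stricter filter. The probes of Per3 were close to each other. At position 1230 it read 75.6 after noise and 25.1 at baseline, a log2 ratio of 1.41 ± 0.21. At position 4787 it read 551 and 176 (1.47 ± 0.20), and at position 5279 it read 632 and 208 (1.42 ± 0.20). The 3 probes ranged over 0.059, and 97.3% of genes with 3 measured probes ranged wider. The gene value of 1.42 was exceeded by 40 of the 26533 measured genes. With the normexp background the Per3 gene value was 1.22, and its probe at position 1230 was at 0.54.

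Per2, a period gene that light and hormones can induce, gave a value just under the 2-fold rule, 0.99 or 1.99-fold higher, but from 2 probes that differed. The probe at position 1001 read 19.3 after noise and 13.8 at baseline, a log2 ratio of 0.31 ± 0.24. The probe at position 5741 read 1033 and 284, a log2 ratio of 1.68 ± 0.20, or 3.21-fold. Their range of 1.37 was exceeded by 0.640% of the 5621 genes with 2 measured probes. The gene value is the midpoint of those probes, so Per2 passed 2-fold where the dim probe was left out (1.68 with the brightest probe or the stricter filter) and also with median scaling (1.02), quantile normalization (1.04) and spike-in scaling (1.17).

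Per1, the member of the family most quickly induced by hormones and neural activity, had a gene value of 0.26, again from unlike probes. At position 4564 it read 4416 after noise and 2440 at baseline, a log2 ratio of 0.67 ± 0.20. The clone-derived probe at position 3405 read 22.3 and 21.7, a log2 ratio of -0.14 ± 0.23 that turned to 0.03 with spike-in scaling. Of genes with 2 measured probes, 4.23% had a wider range than these 0.82. With the brightest probe or the stricter filter Per1 was at 0.67, below 2-fold.

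The cryptochromes, which with PER proteins form the repressor complex, were unlike each other. Cry2 had 3 probes, all higher after noise. It read 536 after noise and 312 at baseline at position 1861 (0.59 ± 0.20). It read 457 and 209 at position 2100 (0.94 ± 0.20), and 3250 and 1781 at position 3938 (0.68 ± 0.20). The Cry2 gene value was 0.68, or 1.61-fold. The Cry1 probes had opposite signs: it read 31.1 after noise and 40.5 at baseline at position 646 (-0.56 ± 0.21), and 32.1 and 21.8 at position 2670 (0.37 ± 0.22). Its gene value of -0.09 therefore gave no direction, and it was at 0.079 with spike-in scaling. Of genes with 2 measured probes, 2.79% had a wider range than the 0.93 of Cry1.

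Bhlhe40 and Bhlhe41, E-box repressors that also respond to hypoxia and cytokines, were both above 0 and under 2-fold by gene value. Bhlhe40 had 1 probe, which read 381 after noise and 212 at baseline, a log2 ratio of 0.66 ± 0.20. Bhlhe41 read 69.3 and 30.4 at position 438 (1.01 ± 0.21) and 64.0 and 38.9 at position 6063 (0.54 ± 0.21), for a gene value of 0.77. With the normexp background Bhlhe41 was at 0.30.

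**Figure D2:**
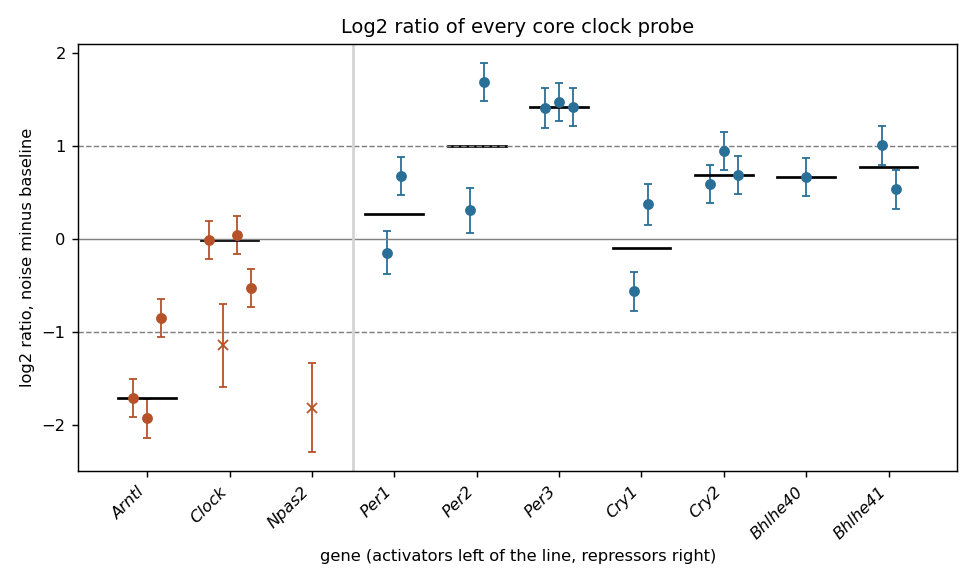
Log2 ratio, noise minus baseline, of each core clock probe (circles, crosses where not well above background on the noise array), in order of position in the transcript from left to right. Bars are the error combined from the scanner software's errors of the 2 signals. Black lines are gene values, and dashed lines mark 2-fold. Per3 probes coincide near 1.42, while the probes of Per2 (0.31 and 1.68) and of Cry1 (-0.56 and 0.37) stand apart.

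In order of gene value came Per3 (1.42), Per2 (0.99), Bhlhe41 (0.77), Cry2 (0.68), Bhlhe40 (0.66), Per1 (0.26), Clock (-0.01) and Cry1 (-0.09). From Per2 to Bhlhe40, and from Per1 to Cry1, neighbours lay no further apart than the probe SD of 0.27. Their order is therefore not settled. Nor is that of Per3 and Per2, or of Bhlhe40 and Per1. With the brightest probe or the stricter filter Per2 (1.681) lay above Per3 (1.417), and Per1 (0.672) above Bhlhe40 (0.664). Arntl (-1.70) was last of the 9 members measured on both arrays, while Npas2, not well above background after noise, cannot be placed against it. With the brightest probe the gap below Cry1 narrowed, to -0.85 against -0.56. Of 15 repressor probes, all measured, 13 were above 0 and 5 were at least 2-fold higher, against 0.615% of the 41659 measured probes of the whole array. With the normexp background 12 were above 0 and 3 at least 2-fold higher, and with spike-in scaling 14 and 6. Of 6 measured activator probes, 5 were below 0 and 2, both of Arntl, were at least 2-fold lower, against 1.27% of all measured probes. With median, quantile and spike-in scaling 4 of these 6 were below 0. Probes of a gene share their transcript and are not independent.

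By gene, 1 of 9 measured members, Per3, was at least 2-fold higher, where 0.611% of all measured genes were. Likewise 1 of 9, Arntl, was at least 2-fold lower, where 1.25% of all measured genes were. Counts this small describe those genes rather than the set. The median log2 ratio was 0.68 over the 7 repressors and -0.86 over the 2 measured activators, and that of all measured genes was -0.01. Of all measured genes 47.5% were above 0, against 6 of 7 repressors and 0 of 2 measured activators, though Cry1 with spike-in scaling and Clock with median, quantile and spike-in scaling lay above 0. The central 95% of all genes ran from -0.77 to 0.63, and 5 repressors lay above it: Per3, Per2, Bhlhe41, Cry2 and Bhlhe40.

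The scaling between arrays moves all ratios by a common amount, so differences between members do not depend on it under percentile, median or spike-in scaling. The log2 ratio of Per3 was 3.12 above that of Arntl, an 8.71-fold difference in relative change. It was 2.23 (4.70-fold) with the normexp background and 2.27 (4.82-fold) with the brightest probe. Per2 was 2.70 above Arntl, Bhlhe41 2.48, Cry2 2.39, Bhlhe40 2.37, Per1 1.97 and Cry1 1.61. Clock, an activator like Arntl, was 1.70 above it. These differences do depend on the background and on the choice of probe. Apart from Per3 they ran from 0.89 (Cry1) to 1.76 (Per2) with the normexp background, with Clock at 0.98. With the brightest probe Clock was 0.33 and Cry1 0.29 above Arntl, and the repressors other than Cry1 ran from 1.39 (Bhlhe41) to 2.53 (Per2). The stricter filter gave 3.39 for Per2 and 1.14 for Cry1.

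**Figure D3:**
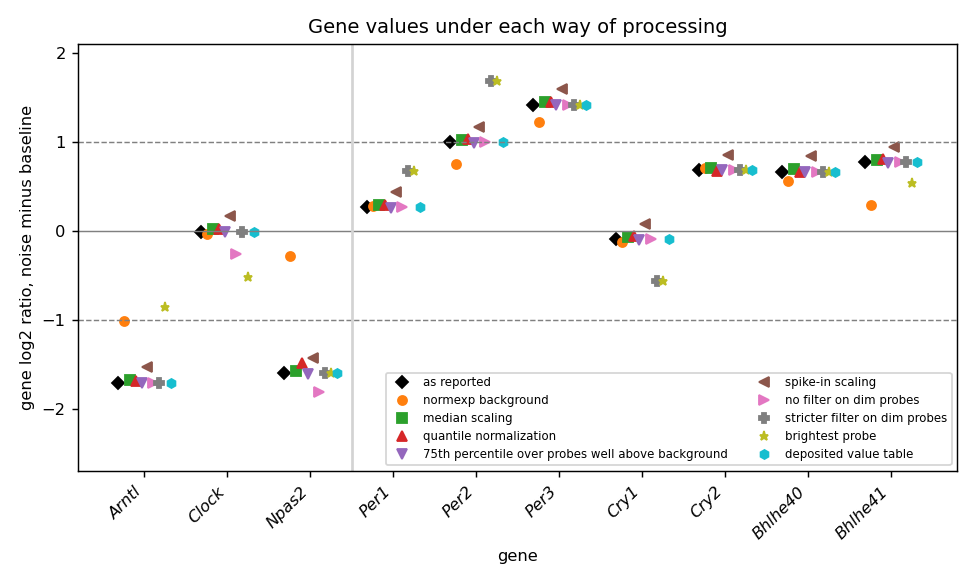
Gene log2 ratio of each member as reported (black diamonds) and under 9 other ways of processing (coloured symbols). For Npas2 the points set its baseline level against the lowest signal well above background on the noise array. The normexp background and the setting that kept dim probes show its measured value instead. Per3 stayed between 1.22 and 1.59 and Cry2 between 0.67 and 0.86, while Arntl ran from -1.71 to -0.85.

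The rest of the clock was read from lists of its other parts. Of 14 genes of the second loop and of clock output, 12 were above 0, 5 were at least 2-fold higher and none was 2-fold lower, with a median of 0.46. Of all measured genes 47.5% were above 0 and 0.611% at least 2-fold higher. Over the alternative ways of processing, 4 to 6 of the 14 were at least 2-fold higher, with 4 under the normexp background. The 5 were Dbp, an activator of D-box genes, at 2.06, Nr1d1 and Nr1d2, which encode the REV-ERB repressors of Arntl, at 1.77 and 1.27, Rorb, a ROR activator gene, at 1.21, and Tef, a relative of Dbp, at 1.14. Rorb rested on 1 dim probe (49.0 after noise and 18.6 at baseline), and the 4 Tef probes ran from 0.04 to 1.25. Ciart, which encodes a further repressor of the activator pair, was at 0.99 from probes at 0.17 and 1.81. Nfil3, the repressor that competes at D-boxes, was lowest at -0.49. Rora, which encodes an activator of Arntl, was at 0.14.

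Genes whose products act on clock proteins after translation showed little difference by gene value. Of 14 kinase, ubiquitin ligase and other regulator genes none passed 2-fold. Furthest from 0 were Csnk1e, a kinase of PER proteins, and Timeless, both at 0.19, and Csnk2a1, a kinase subunit, at 0.17. The list median was -0.01. Single probes could differ more, since the 4 of Gsk3b ran from -0.79 to 0.39. The brightest of these read 2850 after noise and 4350 at baseline. Of 12 chromatin partners of the clock none passed 2-fold either, with a median of 0.08. Sirt1, a deacetylase, was at 0.22, and Cipc, an inhibitor of CLOCK, and Sfpq, an RNA-binding partner of PER proteins, were both at 0.16. A further list held 12 genes induced by glucocorticoids or neural activity, which are also inputs to Per1. All 12 were above 0 with a median of 0.66, where 47.5% of all measured genes were above 0. Fosb (1.20), Fkbp5 (1.19) and Fos (1.07) were at least 2-fold higher, where 0.611% of all measured genes were. With the normexp background none of the 12 reached 2-fold, and with spike-in scaling 5 did. The Per1 gene value (0.26) lay below all 12, the lowest being Sik1 at 0.36, while its bright probe at position 4564 (0.67) lay near the list median. Whether such induction has a part in the Per values was not tested.

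**Figure D4:**
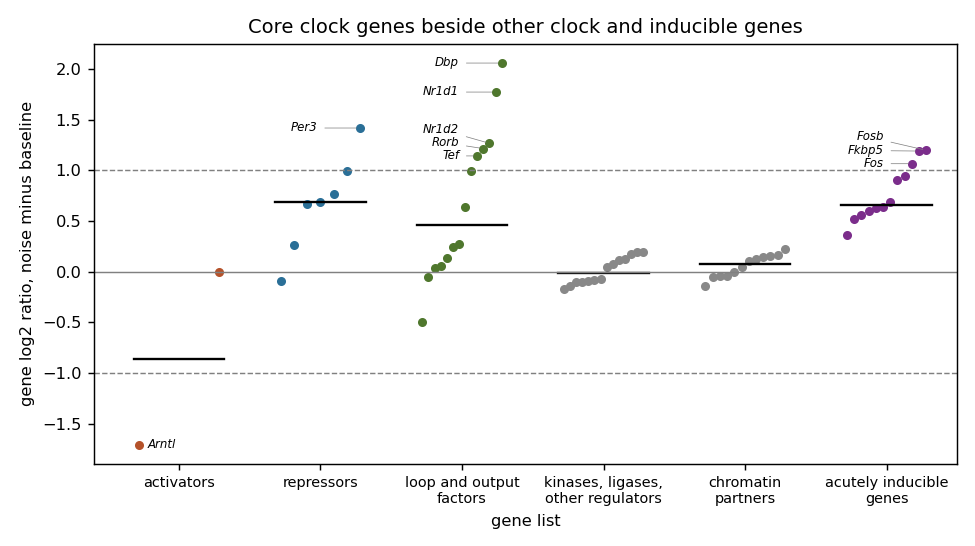
Gene log2 ratios of measured activators and repressors beside 4 lists of other clock and inducible genes. Points are genes, black lines list medians and dashed lines 2-fold, with genes past it named. Regulators and chromatin partners lie within 0.22 of 0, while loop and output factors reach 2.06.

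Both arrays carried the markers of the labelled tissue. All 10 hair cell, 8 supporting cell, 8 stria vascularis and 8 spiral ganglion neuron markers were measured on both, and none passed 2-fold. Their median log2 ratios were 0.08, 0.30, 0.31 and -0.14, in that order. Markers of other tissues also differed between the arrays. Of 10 adipocyte markers 8 were at least 2-fold lower after noise, where 1.25% of all measured genes were. Their summed scaled level was 24.4 after noise and 88.5 at baseline. Also at least 2-fold lower were 6 of 9 measured central neuron markers (1.75 and 9.48), 4 of 8 central glia markers (40.0 and 72.7), 4 of 5 measured pituitary markers (5.41 and 38.9) and 6 of 12 skeletal muscle markers (12.0 and 23.0). B cell markers were higher (28.8 and 18.6), with 2 of 8 at least 2-fold, against 0.611% of all measured genes. Of these, Pax5 rested on probes at 0.07 and 2.38, the brighter at 0.07. Of these markers, Pou1f1 alone was not above background on either array. Fat, muscle and brain run clocks of their own, and the part of such tissue in the values of Arntl, Npas2 and the repressors was not tested.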

How the data were processed

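Cy3-labelled cRNA of 2 cochlear RNA samples was read on 1-colour Agilent arrays, 1 per sample, on the same slide and in the same scan per the file headers. In the deposited scanner files the unit is intensity, produced with Agilent Feature Extraction 11.5.1.1 per the file headers, after background subtraction and detrending and without scaling from one array to the other. A deposited table of log2 values was also given. Its columns matched the log2 processed signal of the same array, floored at 1, less 8.30 (noise) or 8.12 (baseline), and genes were not centred. These constants lie close to the log2 of the arrays' 75th percentiles (316 and 278), so the deposited table is nearly the main scaling and not an independent processing. How it was made is not given in the sources used here.

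Control spots and the 60 (noise) and 58 (baseline) spots with outlier flags were left out, none was saturated, log2 values of a probe's spots were averaged, and each array's 75th percentile was subtracted. Of 56604 probes 41659 were well above background on both arrays, judged by the majority of a probe's spots. A gene took the median of its measured probes. For a gene seen on 1 array only, its level there was set against the higher of its own dim level and the lowest level well above background on the other array. With 1 array per group no p-value was computed and 2-fold was the rule for size. Precision is limited by having 1 array a group. The gene step was tested on simulated data in which all probes of a changed gene were given the same shift. Genes with unlike probes, such as Per2 and Cry1, were not covered by it. All 10 members were named with every probe. Of other lists, genes past 2-fold or among the 3 furthest from 0 were named. Some further genes (Ciart, Nfil3, Rora, Gsk3b, Sik1, Pou1f1) were chosen after their values were seen. The members and lists were chosen with earlier results of these data known. Alternatives were the normexp background (limma 3.58.1, offset 50, R 4.3.3), median, quantile, detected-probe and spike-in scaling, no filter or a stricter filter on dim probes (mean level above the 25th percentile of measured probes), the brightest probe, and the value table. Python 3.11.15 was used for all else.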

Additional observations from a re-analysis of the deposited data

How the results depend on the processing

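Over 9 alternatives, 136 of 144 recomputed log2 values kept their side of the 2-fold rule and 45 of 54 recomputed counts stayed within 1.5 times. None of the members past 2-fold changed sign. These totals include the value table, which held the same signal less a constant for each array and so had to give nearly the same values. They also include the regulator and chromatin partner counts, which were 0 throughout. With the brightest probe Arntl was at -0.851, Clock at -0.521, Per1 at 0.672, Per2 at 1.681 and Cry1 at -0.561, which left 2 members at least 2-fold higher and 0 lower. The stricter filter gave the same Per1, Per2 and Cry1 values and also 2 higher. Per2 passed 2-fold with median (1.021), quantile (1.037) and spike-in scaling (1.168), so 2 members were higher under each. With the normexp background Npas2 was at -0.283, Bhlhe41 at 0.296 and the activator median at -0.519, and 0 acutely inducible genes were 2-fold higher, against 5 with spike-in scaling. With no filter Npas2 entered, so that 2 members were lower and the activator median was -1.705. Of all genes past 2-fold 32.8% were higher, against 43.1% with the normexp background and 58.1% with spike-in scaling, which moved the median of all genes to 0.16 (the 8 spike-in probes differed by -0.20 to 0.40 before scaling). Signal limits Npas2, Clock at position 2247, both Cry1 probes, Per1 at position 3405 and Per2 at position 1001, all below 50 intensity units on both arrays. It also limits the first 2 Arntl probes after noise and Per3 at position 1230 and both Bhlhe41 probes at baseline. No paired analysis was possible because both groups held a single array, and no replicate could be left out.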
